A study of Mus musculus with 1470 samples.

Results

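The nuclear genes of the oxidative phosphorylation enzymes were taken from single-cell expression profiles of mouse liver by symbol alone. Every gene row whose symbol starts with Nduf, Uqcr, Atp5, Cox4, Cox5, Cox6, Cox7 or Cox8 was a member, which gave 83 of the 14915 rows. Of the 83 members, 35 encode subunits of Complex I, 8 of Complex III, 16 of Complex IV (Ndufa4 and its paralog Ndufa4l2 included) and 15 of Complex V, together 74 subunit genes. Another 7 carry the name Ndufaf and encode assembly factors of Complex I. The last 2, Atp5s and Atp5sl, share the prefix but are not subunits of the enzyme.

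Oxidative phosphorylation is the last stage of respiration in the inner mitochondrial membrane. Complex I takes electrons from NADH, Complex III passes them from ubiquinol to cytochrome c, and Complex IV hands them to oxygen. The protons pumped on the way drive Complex V, the ATP synthase. Complex II, cytochrome c and the carriers for ADP and phosphate complete the system, and for several subunits an animal has a common isoform and another that is kept to a few tissues, such as heart and skeletal muscle.

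Non-parenchymal cells were isolated from livers of male C57BL/6J mice, 3 on a normal diet (ND, chow) and 3 on a high-fat diet (HFD) with 60% of calories from fat, given for 9 weeks from 5 weeks of age. Perfused livers were digested with collagenase and spun slowly to remove most hepatocytes before live single cells were sorted. Each cell gave 1 Smart-seq2 library, a full-length cDNA method, and its expression is in RPKM, read numbers scaled to the length of the gene and to the mapped reads of the cell.

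Of the 1470 cells, ND mice 1 to 3 gave 21%, 13.6% and 14.3% and HFD mice 1 to 3 gave 19.7%, 21.4% and 10.1%. Depth is known only as an estimate from the spacing of low values, with a median per mouse of 87634 to 197496 exon reads a cell. HFD2 stood apart with a median of 1596 detected genes a cell, against 2364 to 3163 in the other 5 mice, where detected means at least 1 RPKM. Cells were grouped without use of the members and named from marker genes, as Kupffer cell-like (KC-like, 17.1% of cells), endothelial-like (31.6%), T-cell-like (20.7%), B-cell-like (16.9%), NK-like (54 cells), monocyte-derived or cDC-like (41 cells), hepatocyte-like (35 cells), pDC-like (28 cells), neutrophil-like (15 cells) and erythrocyte-like (29 cells). KC-like, endothelial-like, T-cell-like and B-cell-like cells, the largest classes with 16 to 108 cells a mouse, were tested over mice. The others were only described, among them monocyte-derived or cDC-like cells, although these too had at least 5 cells in every mouse (5 to 9). Transcripts of other classes were present throughout: the summed level of 10 hepatocyte marker genes averaged 111.7 in hepatocyte-like cells, 52.4 in KC-like, 30.1 in endothelial-like, 21.9 in B-cell-like and 16.6 in T-cell-like cells, with 0 of the 10 markers at 0 in any of these classes. Levels below are means over the cells of a class in a mouse of log2(RPKM + 1), on which differences understate the change of low genes.

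The subunit genes were read most strongly in pDC-like and hepatocyte-like cells and least in erythrocyte-like cells. The level averaged over the 74 subunit genes was 4.71 ± 0.70 (SD, n = 6 mice) in pDC-like, 4.58 ± 0.49 in hepatocyte-like and 4.17 ± 0.59 in monocyte-derived or cDC-like cells. It was 3.95 ± 0.80 in T-cell-like, 3.54 ± 0.47 in NK-like, 3.18 ± 0.77 in KC-like, 2.99 ± 0.47 in endothelial-like and 2.83 ± 0.56 in B-cell-like cells. Neutrophil-like cells had 1.94 ± 0.55 and erythrocyte-like cells, whose mature form has lost its mitochondria, 1.44 ± 0.44. Neighbours in this order differed by less than the larger of their SDs, apart from B-cell-like and neutrophil-like cells. Depth differed too: pDC-like cells had the most genes detected (median 3178) and the most estimated reads (241760), and erythrocyte-like cells the fewest genes (1842), but hepatocyte-like cells had 1974 genes and 96671 reads.

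**Figure D1:**
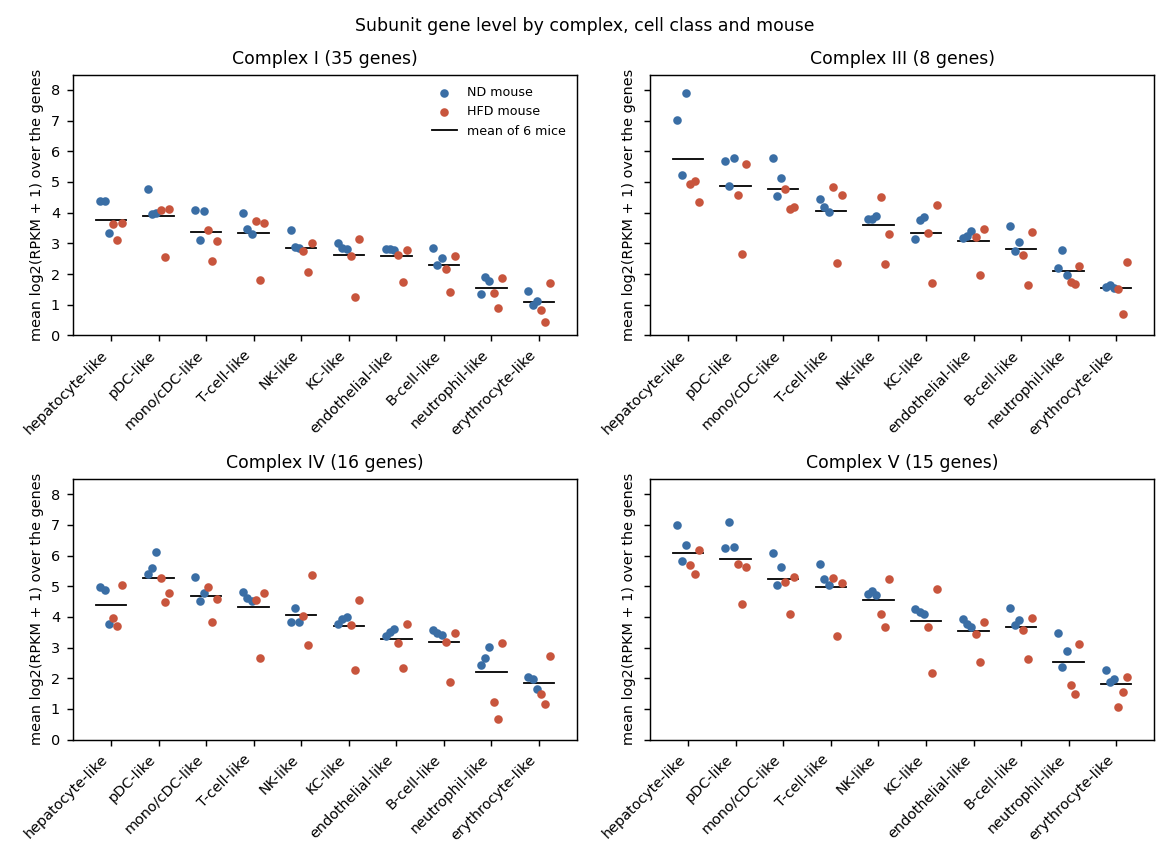
Mean log2(RPKM + 1) over the subunit genes of each complex in 10 cell classes, 1 point per mouse (ND and HFD marked apart) with the mean over 6 mice. Complex I genes averaged lowest of the 4 complexes in each class, and HFD2 was the lowest mouse in T-cell-like, B-cell-like, KC-like and endothelial-like cells.

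All complexes moved with class in much the same order. Complex I genes had 3.91 ± 0.73 in pDC-like, 3.32 ± 0.78 in T-cell-like and 2.31 ± 0.50 in B-cell-like cells. Complex V genes had 5.90 ± 0.89, 4.96 ± 0.82 and 3.69 ± 0.57 in the same classes. Hepatocyte-like cells led in Complex III, with 5.74 ± 1.39, and in Complex V, with 6.07 ± 0.57. The pDC-like cells led in Complexes I and IV, the latter with 5.27 ± 0.58. These leads were smaller than the SD between mice except in Complex IV, where the second class had 4.67 ± 0.49. The Complex IV average includes Cox6a2, which had 8.15 in pDC-like cells and was picked out for this pattern. The same gene is in the average over all subunit genes, and its part in these leads was not tested. As a share of all RPKM, the subunit genes took 4.24 ± 0.65% in hepatocyte-like, 2.43 ± 0.57% in pDC-like, 2.04 ± 0.45% in T-cell-like and 0.325 ± 0.049% in erythrocyte-like cells. Monocyte-derived or cDC-like cells, above T-cell-like and NK-like cells by level, had 1.78 ± 0.41%, below 1.97 ± 0.29% in NK-like cells. The share was 1.618 ± 0.464% in KC-like, 1.572 ± 0.346% in endothelial-like, 1.565 ± 0.224% in B-cell-like and 0.916 ± 0.560% in neutrophil-like cells.

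The clusters that made up a class also differed in subunit level, together with the number of genes detected in a cell and the mice that gave the cells. Averages here are over mice with at least 5 cells in a cluster. The T-cell-like cluster led by Cd3g and Cxcr6 (median 2946 genes) averaged 4.41, the one with Tcf7 and Lef1 (44 cells, 2544 genes) 3.71, and the third (84 cells, 1629 genes) 2.61. Of the pair of KC-like clusters, one (2924 genes) averaged 4.07 and the other (1924 genes) 2.68. Among B-cell-like cells the averages were 3.12 at 2672 genes (5 mice) and 1.87 at 1518 genes (2 mice). Endothelial-like clusters averaged 2.05 (111 cells, 1702 genes), 2.86 (2620 genes), 3.19 (2734 genes) and 4.27 (59 cells, 3570 genes). HFD2 gave 69 of the 84 cells of the lowest T-cell-like cluster and 55 of the 72 cells of the lower B-cell-like cluster, and none of its cells fell in the higher B-cell-like or KC-like cluster. It also gave 73 of the 111 cells of the lowest endothelial-like cluster and 0 of the highest. The parts of cell depth and of this mouse in these values were not tested.

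Single members ranged over the whole scale. Over the 24 profiles of the 4 tested classes, the highest member of each complex was Ndufa2 (an accessory subunit of Complex I, 5.28), Uqcrh (the hinge protein of Complex III, 5.61), Cox4i1 (the common isoform of subunit 4 of Complex IV, 8.33) and Atp5b (the catalytic beta subunit of ATP synthase, 6.70). All 7 assembly factors were low, with Ndufaf3 highest at 0.95. A mean of at least 1 over these profiles was required for a test, which 34 of 35 Complex I, 8 of 8 Complex III, 12 of 16 Complex IV and 13 of 15 Complex V genes passed, and Atp5sl besides. The other 15 members were not tested, so that counts below describe 68 members.

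**Figure D2:**
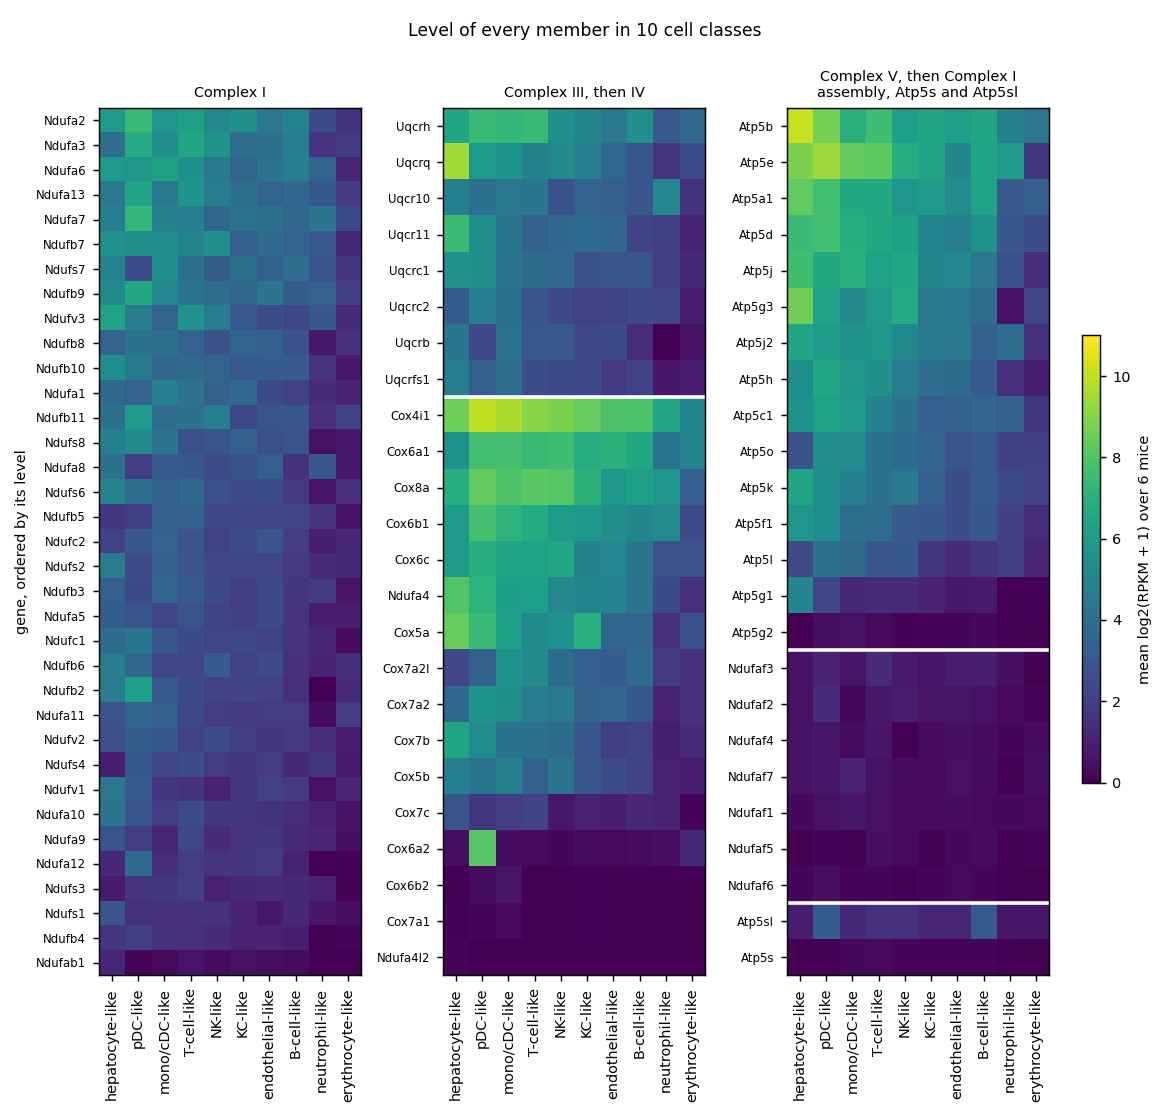
Mean log2(RPKM + 1) over 6 mice of each of the 83 members (rows, by complex) in 10 cell classes (columns), with colour as level. Cox6a2 is high in the pDC-like column (8.15) and near 0 in most others. Low levels are dark, as for the Ndufaf genes in the tested classes.

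Each of the 4 well-sampled classes was compared with the mean of the other 3 within mice (limma on 24 class-by-mouse profiles with mouse as a block, 4092 genes, Benjamini-Hochberg adjusted p under 0.05). T-cell-like cells had 54 of the 68 members higher and 0 lower. Over all genes tested 43.9% were called higher and 20.9% lower. The median difference was 1.001 for the members and 0.34 for all genes. Complex V had 13 of 13 genes higher, Complex IV 11 of 12 (Cox5a apart), Complex III 7 of 8 and Complex I 23 of 34. T-cell-like cells had the highest level of the 4 classes for 58 members, and for 33 of those the next class was lower past the threshold, while 48.1% of all 4092 genes were highest in T-cell-like cells and 20.3% of all were also past the threshold there.

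This count depended on how cells were averaged. When RPKM was averaged over cells before the logarithm, 23 members were higher in T-cell-like cells and 0 lower (33.8% of members higher, where 28.6% of all genes were called higher and 17% lower), with medians of 0.50 and 0.44. With each profile centred on its mean, which took the all-gene median from 0.34 to 0.03, 43 members were higher and 3 lower (29.5% and 28.9% of all genes). T-cell-like cells showed 41.5 ± 9.12 subunit genes a cell, against 34.5 ± 8.25 in KC-like, 34.4 ± 5.59 in endothelial-like and 32.2 ± 7.65 in B-cell-like cells. All genes detected numbered 2764 ± 663, 2342 ± 561, 2687 ± 503 and 2488 ± 646 in these classes, and median depth 137075, 95356, 119805 and 114983 estimated reads.

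**Figure D3:**
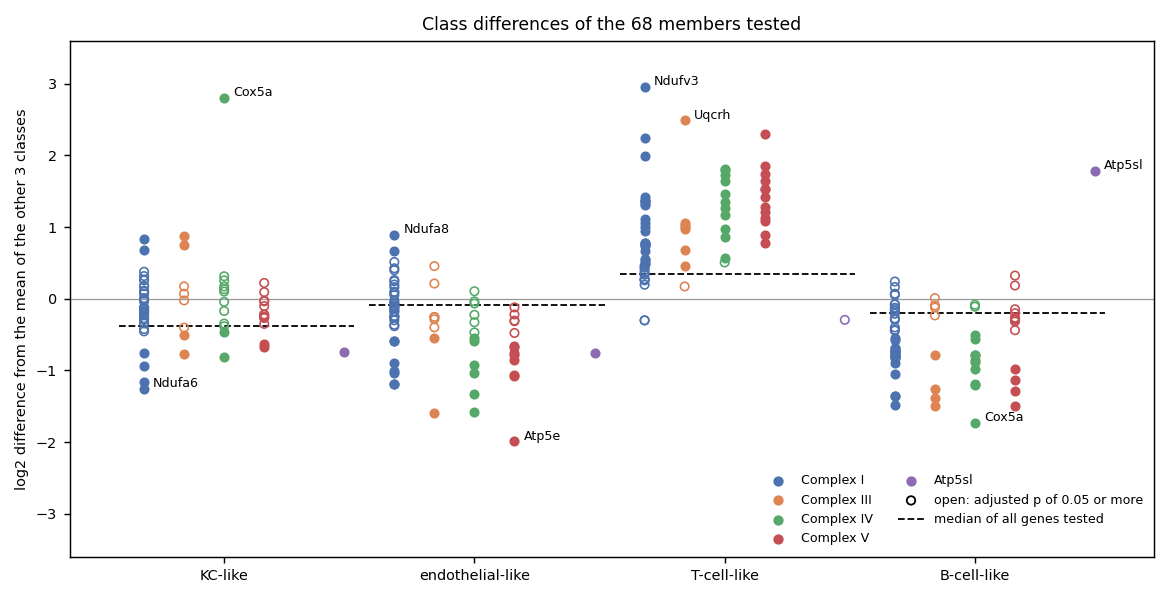
Log2 difference of each tested member between one class and the mean of the other 3, by complex, with calls at an adjusted p under 0.05 (limma) marked and the median of all 4092 genes as a line. T-cell-like values lie mostly above 0 (median 1.001) and B-cell-like values mostly below (median -0.57).

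Uqcrh, which helps cytochrome c dock on Complex III, had the firmest T-cell-like call. Its level in T-cell-like cells was 8.41, 8.45 and 7.93 in ND mice 1 to 3 and 8.30, 4.63 and 7.11 in HFD mice 1 to 3, with HFD2 far below the rest. The means were 7.47 in T-cell-like, 5.51 in B-cell-like, 5.03 in KC-like and 4.41 in endothelial-like cells, a difference of 2.49 ± 0.20 (SE) for T-cell-like cells (limma, adjusted p = 7.668e-12). B-cell-like and KC-like cells did not differ past the threshold (limma, adjusted p = 0.1204), while endothelial-like cells were lowest with a difference of -1.60 ± 0.20 (limma, adjusted p = 6.161e-08).

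Ndufv3, a small subunit of the NADH-binding module of Complex I, had the widest gap. T-cell-like cells had 6.10, 6.03 and 5.53 in ND mice and 6.64, 2.99 and 6.39 in HFD mice. Means were 5.61 in T-cell-like, 3.07 in KC-like, 2.503 in endothelial-like and 2.37 in B-cell-like cells, and these last 3 did not differ from each other in that order (limma, adjusted p = 0.1452 and 0.7737). The T-cell-like difference was 2.96 ± 0.25 (limma, adjusted p = 1.52e-11). None of the Ndufv3 transcript's 50-base windows occurred in another transcript. Atp5h, the d subunit of the peripheral stalk of ATP synthase, read 6.04, 5.91 and 5.09 in ND and 5.94, 3.63 and 6.55 in HFD T-cell-like cells. It was 1.85 ± 0.20 higher there (limma, adjusted p = 1.577e-09), and in B-cell-like cells the difference was -1.29 ± 0.20 (limma, adjusted p = 1.891e-06). Of the Atp5h transcript, 50.5% of windows are shared with transcripts of other genes, so its reads are uncertain.

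B-cell-like cells leaned the other way, with 1 member higher and 37 lower, where 16.1% and 34% of all genes were called. The median was -0.57 for members and -0.20 for all genes. Complex IV had 10 of 12 genes lower, Complex I 19 of 34, Complex III 4 of 8 and Complex V 4 of 13. Averaging before the logarithm left 1 higher and 15 lower (22.1% of members lower, where 22% of all genes were called in either direction). Ndufa8, an accessory subunit of Complex I, read 2.09, 1.63 and 1.81 in ND and 1.21, 1.42 and 1.12 in HFD B-cell-like cells, and its mean of 1.55 lay below 2.74 in KC-like, 3.03 in T-cell-like and 3.33 in endothelial-like cells (difference -1.49 ± 0.22, limma, adjusted p = 1.202e-06). In each of the 6 mice the B-cell-like level of Ndufa8 was below the T-cell-like one.

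The single member higher in B-cell-like cells was Atp5sl, which is not an ATP synthase subunit despite its symbol. It read 4.53, 1.53 and 3.34 in ND and 2.90, 2.23 and 3.93 in HFD mice, with means of 3.08 against 1.52 in T-cell-like, 1.19 in KC-like and 1.17 in endothelial-like cells. The difference was 1.78 ± 0.20 (limma, adjusted p = 1.259e-08). Between T-cell-like and B-cell-like cells directly, 53 members were higher in T-cell-like cells and 1 lower, with 32.6% and 8.11% of all genes called.

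Endothelial-like cells had 2 members higher and 24 lower, with 22.9% and 27.8% of all genes called and medians of -0.27 and -0.09. Averaging before the logarithm gave 1 higher and 15 lower (17.9% and 23.1% of all genes). Complex V contributed 8 of its 13 genes to the lower calls, Complex IV 6 of 12, Complex I 7 of 34 and Complex III 2 of 8. Atp5e, the epsilon subunit of the central stalk, read 6.27, 5.10 and 5.45 in ND and 3.92, 3.12 and 6.55 in HFD endothelial-like cells. Its mean was 5.07, against 8.29 in T-cell-like, 6.49 in KC-like and 6.41 in B-cell-like cells (difference -1.99 ± 0.25, limma, adjusted p = 3.877e-08). Cox8a, the common isoform of a small Complex IV subunit, was also lowest there (5.83, difference -1.33 ± 0.20, limma, adjusted p = 1.348e-06), although B-cell-like cells at 6.24 did not differ from it (limma, adjusted p = 0.1886).

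Against this, Ndufa8 and Ndufb9, both accessory subunits of Complex I, were higher in endothelial-like cells. Ndufa8 read 4.12, 2.92 and 3.56 in ND and 3.72, 3.04 and 2.61 in HFD mice, a difference of 0.89 ± 0.22 (limma, adjusted p = 0.000941). Endothelial-like and T-cell-like levels of Ndufa8 did not differ past the threshold (3.33 and 3.03, limma, adjusted p = 0.3578). For Ndufb9 the difference was 0.66 ± 0.21 (limma, adjusted p = 0.008473), and it was -0.01 when RPKM was averaged before the logarithm.

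KC-like cells had few calls, 5 members higher and 11 lower, where 14.9% and 45.6% of all genes were called, with medians of -0.14 for members and -0.38 for all genes. The split was 6 higher and 7 lower with centred profiles (18.6% and 32.4% of all genes) and 5 higher and 3 lower with averaging before the logarithm (14.8% and 35%). Higher were Ndufa1 and Ndufs8 (Complex I), Uqcr11 and Uqcrq (small subunits of Complex III) and Cox5a. Ndufs8, an iron-sulfur subunit on the path of electrons through Complex I, read 3.86, 3.35 and 3.03 in ND and 3.65, 2.71 and 4.02 in HFD mice (difference 0.68 ± 0.18, limma, adjusted p = 0.00158). Uqcrq was higher by 0.87 ± 0.23 (limma, adjusted p = 0.001813). The KC-like levels of Uqcrq and Ndufa1 (4.71 and 3.77) did not differ past the threshold from those in T-cell-like cells (4.82 and 4.20, limma, adjusted p = 0.7358 and 0.225), which were the higher ones. Among the lower members the firmest were 3 accessory subunits of Complex I, Ndufa6 (-1.26 ± 0.30, limma, adjusted p = 0.0006), Ndufb11 (-0.94 ± 0.22, limma, adjusted p = 0.000675) and Ndufa3 (-1.16 ± 0.30, limma, adjusted p = 0.001403). Some of these calls were lost in other fits. Averaging before the logarithm left Ndufa6 and Ndufa3 short of the threshold (limma, adjusted p = 0.06718 and 0.1953), and with ND mice alone Ndufs8, Uqcrq and Ndufa6 did not pass (limma, adjusted p = 0.06661, 0.1415 and 0.05552), nor did Ndufa3 with HFD mice alone (limma, adjusted p = 0.1055). Uqcrq and Uqcr11 averaged 9.49 and 7.53 in hepatocyte-like cells, and the part of hepatocyte RNA in their KC-like differences was not tested.

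Cox5a, a nuclear subunit of Complex IV, broke the class order of its complex. Its level in KC-like cells was 5.98, 7.65 and 7.87 in ND and 7.31, 4.45 and 8.73 in HFD mice. In T-cell-like cells it was 6.36, 5.16 and 6.49 in ND and 4.75, 2.48 and 6.43 in HFD mice, so that KC-like cells were above T-cell-like cells in 5 of 6 mice, all but ND1. The KC-like mean of 6.998 exceeded 5.28 in T-cell-like cells (limma, adjusted p = 1.364e-05), which exceeded 3.72 in endothelial-like cells (limma, adjusted p = 4.859e-05), while B-cell-like cells at 3.602 did not differ from the latter (limma, adjusted p = 0.7975). Against the other 3 classes Cox5a was 2.80 ± 0.25 higher in KC-like cells (limma, adjusted p = 4.908e-11) and lower in B-cell-like cells by -1.73 ± 0.25 (limma, adjusted p = 7.504e-07), the latter short of the threshold with averaging before the logarithm (limma, adjusted p = 0.05124). The KC-like clusters both carried it, at 8.56 and 6.46. T-cell-like clusters had 6.67, 5.01 and 2.65, the first above the lower KC-like one. Hepatocyte-like cells had Cox5a at 8.44, and the summed hepatocyte markers were also highest in KC-like cells among the 4 classes (24.8 to 69.6 over mice, against 8.67 to 26.8 in T-cell-like cells), whose part in the Cox5a difference was not tested. Of the Cox5a transcript, 32.05% of windows are shared with transcripts of other genes (Gm11633, Gm26631 and Gm49487).

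The T-cell-like and B-cell-like counts leaned the same way within each diet, fits that were added after seeing the data. In T-cell-like cells 47 members were higher and 0 lower with ND mice alone (38.1% of all genes higher), and 38 and 0 with HFD mice alone (27.3%). In B-cell-like cells 26 members were lower with ND mice alone (24.9% of all genes lower) and 20 with HFD mice alone (22.3%).

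Among all 10 classes, the small ones held most of the highest levels, as a description without a test. Of the 68 members, 28 were highest in pDC-like and 28 in hepatocyte-like cells, 8 in monocyte-derived or cDC-like, 3 in T-cell-like and 1 in neutrophil-like cells. Members that stood over the second class by more than 2 on the log2 scale were Uqcrq, Uqcr11 and Atp5g1 in hepatocyte-like and Cox6a2 and Ndufa7 in pDC-like cells. Uqcrq in hepatocyte-like cells read 10.38, 5.72 and 11.17 in ND and 8.96, 10.39 and 10.30 in HFD mice, a gap of 3.55 over pDC-like cells. Ndufa7, an accessory subunit of Complex I, read 6.79, 6.95 and 7.82 in ND and 6.51, 6.80 and 8.58 in HFD pDC-like cells, a gap of 2.39 over monocyte-derived or cDC-like cells. Only 1 to 12 hepatocyte-like and 1 to 8 pDC-like cells came from a mouse.

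Cox6a1 and Cox6a2 encode alternative forms of subunit 6a of Complex IV, of which Cox6a2 is known as the heart and skeletal muscle form. Stretches of 120 coding bases of each are shown to let their differences be seen, since they decide whether reads can be told apart. The Cox6a1 stretch (minus strand within chr5:115345858-115348615 of GRCm38, introns cut out) and the Cox6a2 stretch (minus strand within chr7:128205744-128205950, introns cut out) are aligned without gaps, 5′ to 3′, with capitals at the bases that differ.
Cox6a1: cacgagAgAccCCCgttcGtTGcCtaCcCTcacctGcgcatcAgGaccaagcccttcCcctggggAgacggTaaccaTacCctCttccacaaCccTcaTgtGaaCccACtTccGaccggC
Cox6a2: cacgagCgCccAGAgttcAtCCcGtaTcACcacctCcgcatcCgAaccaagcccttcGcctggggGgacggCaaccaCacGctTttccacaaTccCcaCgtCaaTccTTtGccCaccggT
Of these 120 bases 89 are the same and 31 differ (74.2% identity), and the longest run shared by the full coding sequences is 12 bases.

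Cox6a2 was read in pDC-like cells at a level far above every other class. Its pDC-like levels were 4.73, 11.41 and 5.52 in ND mice 1 to 3 and 7.49, 8.02 and 11.75 in HFD mice 1 to 3, from 8, 1, 2, 6, 7 and 4 cells. The mean was 8.15 ± 2.92 (SD, n = 6), and the second class, erythrocyte-like cells, had 1.22 ± 1.54, while the other 8 classes averaged 0.15 to 0.45. The pDC-like values lie above all 6 values of each other class. These are descriptions, since the gene was picked out for this pattern.

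Cell by cell, Cox6a2 was detected in 21 of 28 pDC-like cells and in 86 of the 1442 other cells (5.96%). In 16 of the 28 pDC-like cells it exceeded Cox6a1, with medians of 1110 RPKM for Cox6a2 and 483 RPKM for Cox6a1. Cox6a1 itself was not missing there, with levels of 7.31, 8.39 and 9.58 in ND and 8.02, 7.56 and 5.60 in HFD mice. In the other cells the medians were 0 RPKM for Cox6a2 and 306.8 RPKM for Cox6a1. Detection outside pDC-like cells was uneven over mice, at 2.67%, 1.01% and 0.481% in ND and 8.83%, 2.93% and 28.3% in HFD mice, with HFD3 far above the rest. The summed level of the 10 markers of pDC-like cells in HFD3 was the highest of the mice in KC-like cells (14.2, others 8.98 to 14.1) and endothelial-like cells (16.8, others 10.9 to 16.6). It was below ND1 and above the other 4 mice in B-cell-like cells (20.3, others 10.1 to 22.4) and T-cell-like cells (8.82, others 5.47 to 8.86), with 0 of the 10 at 0 in each class. In the single erythrocyte-like cell of HFD3 it was 16.4, against 1.93 to 7.38 in the other mice. The part of stray RNA from pDC-like cells in the Cox6a2 of HFD3 was not tested.

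**Figure D4:**
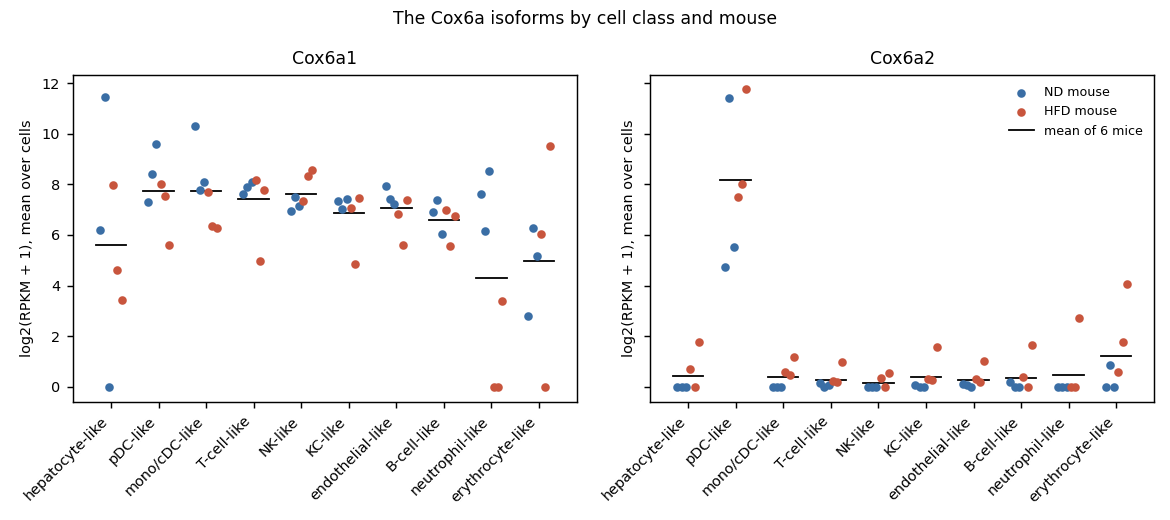
Log2(RPKM + 1) of Cox6a1 and Cox6a2 by cell class, 1 point per mouse with the mean over 6 mice. Cox6a1 is present in every class, while Cox6a2 reaches a mean of 8.15 in pDC-like cells and stays at or below 1.22 on average elsewhere.

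Genes whose level over the 10 classes followed Cox6a2 most closely were Klk1 (Pearson r = 0.998), Dntt (0.998), Adam11 (0.997), Cd209d (0.997), Sh3bgr (0.995), Lrp8 (0.995), Spns3 (0.993) and Siglech (0.993), the first 8 of 4751 genes ranked. The 10 points share their libraries and rest on 1 high class. Dntt, Cd209d, Lrp8 and Siglech were among the markers that named the pDC-like class.

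Other isoform pairs showed the common form throughout. In Complex IV, Cox6b1 averaged 6.79 in T-cell-like and 5.85 in KC-like cells while its partner Cox6b2, best known from testis, averaged 0.03 and 0.09. Cox7a2 averaged 4.63 in T-cell-like and 3.65 in endothelial-like cells, and Cox7a1, the heart and muscle form, was at 0 in all T-cell-like cells and at 0.01 in endothelial-like cells. Cox7a2l was highest of the 4 tested classes in T-cell-like cells at 5.26. Ndufa4 averaged 6.19 in T-cell-like and 8.02 in hepatocyte-like cells, and its hypoxia-inducible paralog Ndufa4l2 did not exceed 0.13 in the classes of KC-like, endothelial-like, T-cell-like, B-cell-like, pDC-like and hepatocyte-like cells. Cox4i1, Cox7b and Cox8a averaged 9.06, 4.11 and 8.18 in T-cell-like cells. Their tissue-restricted partners Cox4i2, Cox7b2, Cox8b and Cox8c were not analysed here.

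The c-ring of ATP synthase is built from copies of a protein that several genes encode. Atp5g3 carried most of the signal, with 8.62 ± 1.35 in hepatocyte-like, 6.39 ± 0.74 in pDC-like and 5.91 ± 1.14 in T-cell-like cells. Atp5g1 was low in the tested classes, with 0.74 to 1.32 on average, and in hepatocyte-like cells it read 4.50, 7.10 and 8.07 in ND and 1.91, 2.95 and 5.43 in HFD mice, without a test. Atp5g2 stayed at 0.41 or below on average in the same classes. It is uncertain, since 87.4% of its transcript windows also occur in Gm10175 or Gm10231 and only uniquely mapped reads were counted. Over all 83 members, 37 transcripts shared no 50-base window with another gene and 6 shared over 50% of theirs.

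Promoters are shown for Cox6a1, the common isoform above, and for Uqcrh, Ndufv3 and Atp5h, the T-cell-like calls with the smallest p, because genes of this pathway are known to carry sites for NRF1, ETS factors such as GABP, and YY1. The 200 bases before the start are given 5′ to 3′ on the gene's strand (RefSeq, GRCm38.p6), with capitals for the letters of NRF1 (GCGCN followed directly by TGCGC) or ETS (CCGGAAG) on either strand. Their places are chr5:115348959-115349158 (minus strand), chr4:116075071-116075270 (minus), chr17:31519915-31520114 (plus) and chr11:115419920-115420119 (minus).
Cox6a1: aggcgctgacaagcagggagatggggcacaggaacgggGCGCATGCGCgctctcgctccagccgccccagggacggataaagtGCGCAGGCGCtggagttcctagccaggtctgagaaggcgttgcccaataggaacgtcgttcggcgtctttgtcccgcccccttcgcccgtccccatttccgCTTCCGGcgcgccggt
Uqcrh: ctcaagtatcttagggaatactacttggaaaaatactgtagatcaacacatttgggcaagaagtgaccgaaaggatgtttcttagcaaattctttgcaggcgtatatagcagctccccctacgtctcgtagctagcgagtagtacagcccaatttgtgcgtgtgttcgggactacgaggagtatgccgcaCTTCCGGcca
Ndufv3: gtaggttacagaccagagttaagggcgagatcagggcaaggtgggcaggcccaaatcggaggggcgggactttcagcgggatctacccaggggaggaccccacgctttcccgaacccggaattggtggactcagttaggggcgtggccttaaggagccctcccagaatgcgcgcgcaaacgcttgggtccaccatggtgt
Atp5h: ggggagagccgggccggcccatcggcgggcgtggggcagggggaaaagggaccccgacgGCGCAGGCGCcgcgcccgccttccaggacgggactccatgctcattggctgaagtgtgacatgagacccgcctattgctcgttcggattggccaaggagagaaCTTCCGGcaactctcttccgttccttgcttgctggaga
The Ndufv3 stretch holds none of these letters. Promoter entries from 250 bases before to 50 after the start matched 67 of the 83 members.

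Of these 67 members, 16 held the NRF1 letters (23.9%), against 12.7% of the tested genes and 5.19% of all 27025 genes with a promoter entry. The ETS letters occurred in 15 members (22.4%), the same share as among tested genes (22.4%) and above 9.93% of all genes. The YY1 letters (AAGATGG followed directly by CGGC) occurred in 4 members (5.97%), against 2.08% of tested genes and 0.755% of all genes. Among members higher in T-cell-like cells, 12 of 44 held the NRF1 letters (27.3%), against 17.4% of the other members. These matches describe letters in a window and say nothing of binding in these cells.

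The rest of the pathway was read from lists of known genes. In T-cell-like cells, where 43.9% of all genes were called higher with a median difference of 0.34, glycolysis had 7 of 8 tested genes higher and 0 lower (Hk1, Gpi1, Pfkp, Aldoa, Gapdh, Pkm and Ldha, median difference 1.47). Ldha, which makes lactate, was 2.19 ± 0.23 higher there (limma, adjusted p = 1.005e-09) and lower in B-cell-like cells by -2.11 ± 0.23 (limma, adjusted p = 4.023e-09). Complex II, which shares its succinate dehydrogenase with the TCA cycle, had 2 of 4 genes higher in T-cell-like cells (Sdhb and Sdhc), and the TCA cycle 3 of 10 (Cs, Idh3b and Mdh2). Of cytochrome c and c1, only Cyc1 was tested, and it was higher in T-cell-like cells.

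In KC-like cells (14.9% of all genes higher and 45.6% lower), Sdhc and Sdhd of Complex II were higher, the TCA cycle had 0 of 10 higher and 1 lower (Idh3b), and glycolysis 1 of 8 higher (Tpi1) and 1 lower (Pfkp). Endothelial-like cells (22.9% and 27.8%) had 0 higher and 4 lower of 8 glycolysis genes, and 0 higher and 3 lower of 10 TCA cycle genes. B-cell-like cells (16.1% and 34%) had 0 higher and 4 lower of the 8, and 0 higher and 1 lower (Dlst) of the 10. Of 9 regulators listed, only Yy1 was tested, and it was lower in KC-like cells.

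Atpif1, the inhibitor that blocks ATP hydrolysis by Complex V, took a course of its own. It averaged 5.62 in KC-like, 4.64 in endothelial-like, 2.86 in T-cell-like and 2.81 in B-cell-like cells, and 6.40 in pDC-like cells. The difference was 2.19 ± 0.23 in KC-like cells (limma, adjusted p = 2.902e-09) and -1.49 ± 0.23 in T-cell-like cells (limma, adjusted p = 2.227e-06), in which all 13 tested Complex V subunits were higher. The other tested genes of the assembly and inhibitor list, Surf1, Cox17 and Uqcc2, were higher in T-cell-like cells.

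Carriers of the inner and outer membrane were read from a list of 7. Ucp2, an uncoupling protein family member common in immune cells, was 1.53 ± 0.18 higher in KC-like cells (limma, adjusted p = 2.183e-08), 1.26 ± 0.18 higher in T-cell-like cells (limma, adjusted p = 5.365e-07) and lower in endothelial-like cells by -2.55 ± 0.18 (limma, adjusted p = 1.74e-13). Slc25a4, an ADP/ATP carrier, was in contrast higher in endothelial-like cells by 1.19 ± 0.24 (limma, adjusted p = 8.621e-05). In endothelial-like cells 1 of 7 carriers was higher and 3 lower, in T-cell-like cells 3 were higher and 0 lower, in KC-like cells 2 and 0, and in B-cell-like cells 0 and 2. The shares of all genes called higher and lower were 22.9% and 27.8%, 43.9% and 20.9%, 14.9% and 45.6%, and 16.1% and 34% in these classes.

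The diets were compared within each class (limma, 3 HFD against 3 ND mice). No member passed the adjusted threshold in any of the 4 classes: 0 of 69 in KC-like, 0 of 66 in endothelial-like, 0 of 70 in T-cell-like and 0 of 67 in B-cell-like cells. Of all genes, 0.0302% were called lower in KC-like cells, which is 1 gene of 3316 (Serpina1e, made by hepatocytes, -3.67 ± 0.55, limma, adjusted p = 0.03293), and 0% in the other classes and in the higher direction. At an unadjusted p under 0.05, 3, 5, 7 and 7 members were lower with HFD in the same order of classes, where 1.84%, 1.98%, 3.03% and 3.20% of all genes were lower. In the other direction 0 members passed this threshold, with 0.121%, 0.238%, 0% and 0.0821% of all genes. The median 95% interval of a member reached 1.33, 1.01, 1.24 and 1.19 to either side without adjustment. The adjusted threshold asks for more than an interval that excludes 0, so that changes larger than these could also go uncalled.

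Member levels leaned lower with HFD, by an amount that depended on single mice. The members tested in KC-like cells averaged 3.69, 3.69 and 3.70 in ND mice and 3.36, 1.84 and 4.19 in HFD mice. In T-cell-like cells they averaged 4.86, 4.41 and 4.24 in ND and 4.61, 2.53 and 4.56 in HFD mice. HFD2, the mouse with the fewest genes detected per cell, was lowest in all 4 classes, and HFD3 lay above all ND mice in KC-like and endothelial-like cells. Median differences were -0.56, -0.46, -0.53 and -0.58 in KC-like, endothelial-like, T-cell-like and B-cell-like cells, against -0.19, -0.15, -0.26 and -0.30 for all genes. With cells of at least 2000 genes alone the member medians were -0.05, -0.30, -0.17 and -0.30, and with averaging before the logarithm -0.23, -0.37, -0.24 and -0.25. Without HFD2 they were 0.01, -0.11, 0.11 and -0.24, against 0.13, 0.11, 0.08 and -0.0036 for all genes. Without HFD3 they were -1.05, -0.77, -0.91 and -0.83, and in T-cell-like cells the median was -0.89 without HFD1 and -0.31 without ND1.

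**Figure D5:**
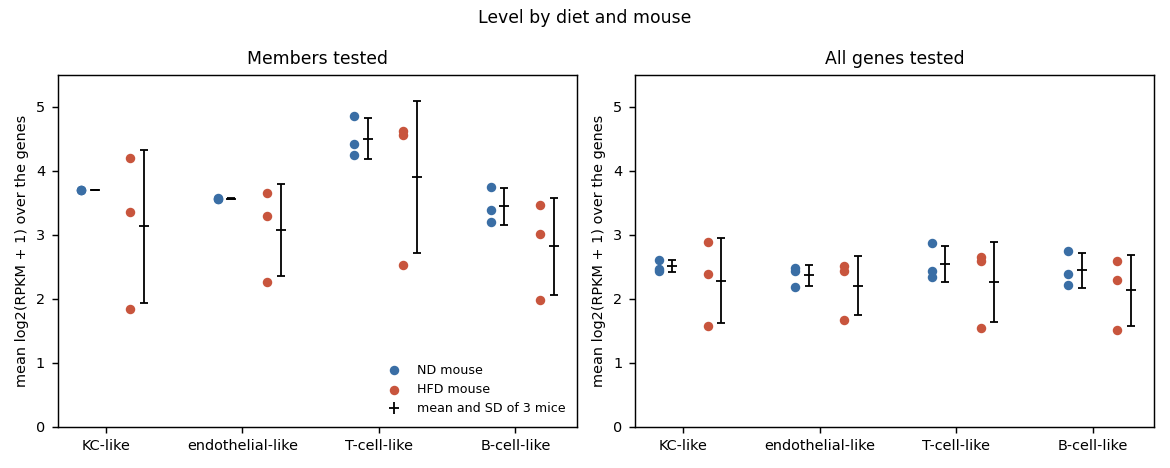
Mean log2(RPKM + 1) over the members tested in each of 4 classes, 1 point per mouse for ND and HFD, with the mean and SD of 3 mice. HFD2 is lowest in each class (1.84 in KC-like and 2.53 in T-cell-like cells), and the other HFD mice overlap with or lie close to the ND mice.

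The members with the smallest p in each direction were looked at mouse by mouse. Ndufa4, a Complex IV subunit, read 5.15, 5.21 and 5.11 in ND and 3.79, 1.81 and 4.07 in HFD B-cell-like cells, a change of -1.94 (95% interval -3.16 to -0.71, limma, p = 0.003835, adjusted p = 0.9988). The HFD mice spread widely here. Ndufb10, of Complex I, read 5.18, 5.32 and 3.34 in ND and 3.24, 2.75 and 2.93 in HFD T-cell-like cells (-1.64, interval -2.83 to -0.45, limma, adjusted p = 0.997). Ndufb9 read 4.98, 4.68 and 5.48 in ND and 4.37, 2.85 and 3.61 in HFD endothelial-like cells (-1.43, interval -2.43 to -0.44, limma, adjusted p = 0.9998).

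In KC-like cells the lower member with the smallest p was Ndufa13, of Complex I, with 4.77, 4.78 and 4.92 in ND and 3.65, 1.85 and 4.33 in HFD mice (-1.54, interval -2.84 to -0.25, limma, adjusted p = 0.9993). Upward differences were smaller. Atp5sl in KC-like cells differed by 0.41, Ndufs3 in endothelial-like cells by 0.43, and Ndufs1, the largest subunit of Complex I, by 0.49 in T-cell-like and 0.32 in B-cell-like cells, each with an interval that spans 0.

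A single mouse could change the endothelial-like result. Without HFD3, 48 of 4043 genes were lower with HFD (1.19%) and 1 higher (0.0247%). Of these, 2 were members and lower, Atp5e (-2.09 ± 0.50, limma, adjusted p = 0.006545) and Cox8a (-1.81 ± 0.50, limma, adjusted p = 0.03267). The HFD3 levels left out were 6.55 for Atp5e and 6.58 for Cox8a, inside or above the ND values of 6.27, 5.10 and 5.45 and of 6.91, 5.57 and 6.74. The endothelial-like cluster led by Sparc and Ptprb held 77, 24 and 21 cells of ND mice and 10, 0 and 26 of HFD mice. The cluster with the lowest subunit level held 0, 10 and 2 against 22, 73 and 4. The part of this uneven mix in the diet differences was not tested. None of the pathway lists had a gene past the threshold between diets in any class.

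Whether the diet difference itself varied with class was tested on within-mouse differences between classes. For KC-like against endothelial-like cells 0 of 3891 genes passed (limma), against T-cell-like cells 0 of 3976 and against B-cell-like cells 0 of 3515, members included. At an unadjusted p under 0.05, 1 member was lower in the first (1.52% of all genes lower, 0.822% higher). In the others 1 and 2 members were higher (2.31% and 2.39% of all genes higher, 1.03% and 1.08% lower).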

How the data were processed

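The authors deposited a table of RPKM values, made from uniquely mapped reads with rpkmforgenes, for 14915 genes and 1470 mouse cells. The submitters' processing notes name bcl2fastq, STAR and the mm10 build. Quality filters and doublet removal (Scrublet) came before deposit, so no doublet caller was run. All 1470 columns were mapped to 1 of 6 mice by their labels. Since RPKM keep no counts, depth is an estimate from low values: 63.4% lay within 0.05 of a whole multiple of 1 read, against 14.3% with shuffled gene lengths. The precision of a level rests on its cells and mice.

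Cells were clustered (scikit-learn 1.9.0) on 1000 variable genes, 20 principal components, 15 nearest neighbours and 17 clusters, with 149 genes left out, among them the members. A class name needed at least 3 detected markers. Log2(RPKM + 1) was averaged per class and mouse and tested with limma 3.58.1 (R 4.3.3) without a trend, keeping genes whose mean level was 1 or more, classes with mouse as a block and diets with 3 mice against 3, with Benjamini-Hochberg adjustment over all genes tested. Replicates are separate mice. The fits were tested on simulated data, where the diet fits missed most of the changes put in, so that an absence of diet calls does not show that levels were alike. Alternatives changed the pseudocount, averaging, scaling, filter, trend, clustering and mice. Members and lists were chosen with earlier results of these data known. Named members were isoforms, up to 3 per direction and class with the smallest adjusted p, the diet member with the smallest adjusted p per direction where none passed, the highest of each complex, and those 2 or more above their second class. Cox6a2 and Ndufa4l2 are named without a promoter, and sequences of chromosome 18 are not reported here.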

Additional observations from a re-analysis of the deposited data

Results flagged for a closer look

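For named members, 30 sets of 6 mice were searched for a mouse far from the others by Dixon's ratio, and 7 sets held one. For independent and normal values chance would give about 1 in 20. These sets reuse the same 6 mice and some genes, so that rate does not measure an excess here. Cox6a2, at or near 0 in most cells outside pDC-like cells, was highest in HFD3 in 4 classes: 1.63 in B-cell-like cells (others 0 to 0.37), 1.03 in endothelial-like cells (others 0 to 0.32), 1.57 in KC-like cells (others 0 to 0.29) and 0.99 in T-cell-like cells (others 0 to 0.24). HFD2 was lowest for Ndufv3 in T-cell-like cells, at 2.99 against 5.53 to 6.64 in the other mice. It was also lowest for Uqcrh, at 4.63 in T-cell-like cells (others 7.11 to 8.45) and at 2.55 in endothelial-like cells (others 4.49 to 5.18). HFD2 had a median of 1596 genes detected a cell and HFD3 3163, and the part of depth in these values was not tested.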

How the results depend on the processing

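Averaging RPKM before the logarithm changed most counts of members. In T-cell-like cells it gave 23 higher, in B-cell-like cells 15 lower, in endothelial-like cells 1 higher and 15 lower, and in KC-like cells 3 lower. Under it Ndufb9 in endothelial-like cells turned to -0.0051. Centred profiles gave 7 lower in KC-like cells, 3 lower in T-cell-like cells and 2 higher in B-cell-like cells (32.4%, 28.9% and 21.2% of all genes). With cells of at least 2000 genes, 6 members were lower in KC-like and 1 higher in endothelial-like cells (36.4% and 21.7% of all genes). Rescaled cells, and likewise 10 principal components, gave 4 higher in endothelial-like cells (26.1% and 24.4% of all genes). ND mice alone and HFD mice alone, both chosen after seeing the data, each gave 3 higher in KC-like cells (12.5% and 11.4% of all genes), and HFD mice alone gave 3 lower in KC-like, 1 higher and 10 lower in endothelial-like and 20 lower in B-cell-like cells (22%, 17.6%, 17.1% and 22.3% of all genes). Both use fewer mice. The cause of the other changes was not tested. Leaving out each mouse in turn gave 4 to 6 higher and 9 to 14 lower in KC-like, 2 to 3 and 18 to 25 in endothelial-like, 48 to 55 and 0 in T-cell-like, and 1 to 2 and 30 to 37 in B-cell-like cells. With all mice, 14.9%, 22.9%, 43.9% and 16.1% of all genes were higher in these classes. The shares lower were 45.6%, 27.8%, 20.9% and 34%. Without ND mouse 1 they were 15%, 22.8%, 38.4% and 14.4% higher and 39.3%, 24.7%, 21% and 32.3% lower. Among the values of named class members under all alternatives, 10 lost significance (Ndufs8, Uqcrq, Ndufa6, Ndufa3, Ndufb9 and Cox5a in B-cell-like cells), 1 reversed, and the others kept direction and side of the threshold. Without ND mouse 2, B-cell-like cells had 2 members higher (15.4% of all genes).

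Between diets, the count of members called was 0 in every alternative except without HFD3, where endothelial-like cells had 2 lower (range 0 to 2). Atp5sl in KC-like cells ran from -0.0427 without ND mouse 2 to 0.80 without ND mouse 1. With the replicate number as a block, 0 members passed in each class. No clear pairing by number was seen. Same-numbered mice correlated from -0.20 to 0.20 in their deviations from group means, and only in B-cell-like cells did all 3 match their own number best. With 3 mice per diet such deviations can hardly show a pairing, so none is excluded. The few genes detected in cells of HFD2 limit what can be said of low members in that mouse, and small classes rest on as few as 1 cell in a mouse.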
